A study of Mus musculus with 9 samples.

Results

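The genes described here are Myh6, Myh7, Myh7b, Thra and Thrb, 5 of the 22851 genes in a count matrix of mouse heart RNA. They encode 3 myosin heavy chains of striated muscle and the receptors for thyroid hormone, and they were taken by gene symbol, with all 9 libraries compared across the study's 3 groups. They were selected on what these genes are known to do and, with the results known, on their counts and group differences in the same libraries, so their levels and fold changes are given as descriptions without p-values, and only genes outside these 5 carry a test. The lists of those other genes were also chosen with earlier results of these data known. All 3 groups were male C57BL/6 mice, given as C57BL/6J in the study's methods. The CK group received citrate buffer. The DCM (diabetic cardiomyopathy) group received a single intraperitoneal dose of streptozotocin at 180 mg/kg, a toxin of the insulin-producing cells, and was studied 12 weeks later. In the SPM group the same streptozotocin was combined with the polyamine spermine (1 mg/kg), which started 2 weeks ahead of the toxin with daily doses and went on with a dose on alternate days until week 12. The mice were 6 to 8 weeks old at the start, and no library came from mice given spermine without streptozotocin.

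Myosin heavy chains are the motors of the sarcomere, the contractile unit of muscle. Myh6 encodes alpha myosin heavy chain, the fast form that dominates the adult mouse ventricle, and Myh7 encodes the slower and more economical beta form, which dominates the fetal mouse ventricle and slow skeletal muscle. Thyroid hormone acts through the nuclear receptors encoded by Thra and Thrb, raising Myh6 and lowering Myh7 in the rodent heart. A shift from Myh6 towards Myh7 is long known in rodent hearts under pressure overload, in low thyroid hormone and in diabetes caused by streptozotocin. Myh7b encodes a more distant slow myosin whose transcript in the mammalian heart is known to be spliced in a way that yields little protein.

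In GENCODE M21 on the GRCm38 assembly, Myh6 (ENSMUSG00000040752, chr14:54941921-54966927) and Myh7 (ENSMUSG00000053093, chr14:54970684-54994626) lay next to each other on the minus strand, with 3756 bases between them. Myh7b (ENSMUSG00000074652, chr2:155611212-155634307) and Thra (ENSMUSG00000058756, chr11:98740638-98769006) lay on the plus strand of other chromosomes. Thrb (ENSMUSG00000021779, chr14:17660261-18038090) lay on the plus strand of chromosome 14. Each of the 3 myosin genes holds a microRNA in an intron, on its own strand. The mature sequences from RefSeq on GRCm38.p6 are shown because they are read from the same transcripts as the myosins, at chr14:54949072-54949093 for miR-208a-3p in Myh6, chr14:54975710-54975731 for miR-208b-3p in Myh7 and chr2:155622893-155622913 for miR-499-5p in Myh7b. Capitals mark the seed, bases 2 to 8 from the 5′ end, which pairs with target messages.
miR-208a-3p: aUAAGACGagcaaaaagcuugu
miR-208b-3p: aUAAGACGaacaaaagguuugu
miR-499-5p: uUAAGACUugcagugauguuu
The microRNAs of Myh6 and Myh7 share their seed with each other and with no other mature mouse microRNA in the table, and they differ at 3 bases (G10A, A16G and C18U, with the base of miR-208a-3p first and positions counted from the 5′ end). The seed of miR-499-5p shares 6 of its 7 positions with theirs. The microRNAs themselves were not analysed here.

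The stretches of 120 bases that lie 215 to 96 bases before the RefSeq start of Myh6 (chr14:54966703-54966822, minus strand) and before the first RefSeq start of Myh7 (chr14:54994722-54994841, minus strand) are shown as the sequence upstream of the 2 genes whose ratio moved. Neither holds an annotated exon, and that of Myh6 lies in an intron of its longer GENCODE model. Capitals mark the motifs that were searched.
Myh6: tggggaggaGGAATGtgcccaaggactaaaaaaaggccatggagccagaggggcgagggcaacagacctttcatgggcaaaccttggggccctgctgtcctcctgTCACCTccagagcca
Myh7: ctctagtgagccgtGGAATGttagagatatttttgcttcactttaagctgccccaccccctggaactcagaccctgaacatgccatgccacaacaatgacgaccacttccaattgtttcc
The motifs were CATTCC, the muscle element bound by TEAD factors, and AGGTCA and AGGTGA, hexamers of the kind that thyroid receptors bind, each on both strands. In the 250 bases before a start, they occurred in 12.6%, 14.02% and 14.5% of 32851 promoters, respectively. Both Myh6 and Myh7 held GGAATG, 206 and 201 bases before their starts, and Myh6 also held TCACCT at 110 bases. The window of the second Myh7 start held none of them. Myh7b held TGACCT at 46 bases, and Thrb held AGGTCA at 184 bases before one start and CATTCC at 96 bases before another. Promoter sequences were found for 4 of the 5 genes, all but Thra. A match of 6 letters is a description of the window and not a shown binding site.

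The libraries held 29901300 to 39718680 counts. Of 10 cardiomyocyte markers, 8 were in the matrix and all reached 1 CPM (counts scaled to a common library total) in every library. The tissue label names the heart while the extraction protocol of the labels speaks of retinas. Of 11 retina markers, 9 were in the matrix and Rom1 alone reached 1 CPM in every library. Mitochondrial genes took 13.7% to 16.2% of the counts of CK libraries, against 15.5% to 18.9% in DCM and 21.0% to 21.1% in SPM, but their part in the results was not tested. The log2 fold changes of all genes followed the GC content of their transcripts in SPM compared to DCM (Spearman correlation -0.50 across 14484 genes) and in SPM compared to CK (-0.37 across 14564 genes) but hardly in DCM compared to CK (0.06 across 14392 genes). Values refitted with an offset for GC content are therefore given where they moved a value of these genes. SPM replicate 2 stood apart in another way. Its value lay between those of replicates 1 and 3 for 66.6% of 13849 genes, and a mixture of 46% of replicate 1 with replicate 3 matched it to 0.883 times the counting noise, where the closest of 251 other combinations of 3 libraries reached 2.49 times. Replicate 2 detected 30 (1.13%) of the 2656 genes that its fellow replicates both missed, against 15.6% to 35.0% for the corresponding share of the other 8 libraries. Results that rest on SPM are given with and without this library. In bulk RNA, fewer cells of a type and less RNA per cell cannot be told apart.

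Myh6 had the highest level per length of the 5 genes in every library. Its normalized level was 22817, 22667 and 25836 CPM in CK replicates 1 to 3, 18801, 23766 and 20485 in the DCM replicates, and 13956, 17400 and 20245 in the SPM replicates. Normalized CPM is CPM after scaling by the trimmed mean of M values (TMM). The CK and DCM libraries overlapped, as did DCM and SPM, whereas every SPM library lay below every CK library. The log2 fold change was -0.18 (SE 0.10) in DCM compared to CK, -0.29 (SE 0.14) in SPM compared to DCM and -0.47 (SE 0.12) in SPM compared to CK, the last a level at 0.721 of CK. Without SPM replicate 2 the SPM values were -0.30 (SE 0.17) against DCM and -0.48 (SE 0.14) against CK, and with the GC offset they were -0.11 and -0.32. Per length, Myh6 held 3911 to 4357 FPKM (counts divided by transcript length and library total) in CK, against 3082 to 3759 in DCM and 2218 to 3234 in SPM.

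Myh7 was higher in every DCM library than in any CK library, and higher again in every SPM library. Its normalized level was 272.4, 128.1 and 214.8 CPM in CK, 1189, 1912 and 1253 in DCM, and 4865, 3370 and 2033 in SPM. The SPM libraries differed among themselves more than those of DCM, and SPM replicate 3 lay just above DCM replicate 2. Myh7 was 7.08-fold higher in DCM than in CK (log2 fold change 2.82, SE 0.24) and 2.36-fold higher in SPM than in DCM (1.24, SE 0.27). Against CK the level in SPM was 16.6-fold higher (4.06, SE 0.36). In order from the highest fold, this placed Myh7 at position 4 of 14402 genes in DCM compared to CK, at 212 of 14493 in SPM compared to DCM and at 9 of 14574 in SPM compared to CK. Without SPM replicate 2 the log2 fold changes were 1.25 (SE 0.28) against DCM and 4.07 (SE 0.38) against CK, and the GC offset gave 1.42 and 4.22. The DCM libraries enter both the first and the second comparison, so these folds are not independent of each other. All 3 SPM libraries lay farther from CK than any DCM library did.

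**Figure D1:**
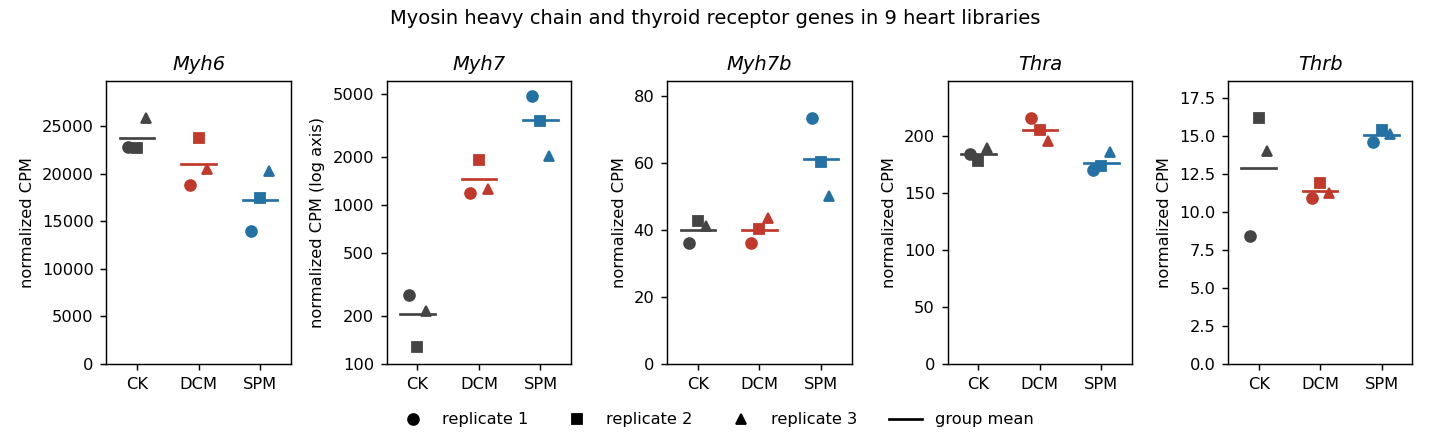
Normalized CPM (vertical axes, with a log axis for Myh7 and axes from 0 for the other genes) of Myh6, Myh7, Myh7b, Thra and Thrb in the 9 libraries, by group. Points are libraries, shaped by replicate, and lines are group means. Myh7 climbs from 128.1 to 272.4 in CK to 2033 to 4865 in SPM, while Myh7b is high only in SPM among these groups. The mean of Myh6 is lowest in SPM, though its SPM and DCM points overlap.

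The share of Myh7 in the sum of Myh6 and Myh7 counts states the balance within each library without any scaling between libraries. In CK it was 1.18% (Wilson 95% interval 1.16 to 1.20), 0.562% (0.546 to 0.578) and 0.825% (0.805 to 0.845), from 724372, 817293 and 803223 counts. In DCM it was 5.95% (5.90 to 6.00), 7.45% (7.39 to 7.50) and 5.77% (5.71 to 5.82), and in SPM it was 25.8% (25.7 to 26.0), 16.2% (16.1 to 16.3) and 9.13% (9.06 to 9.19). The intervals cover counting error only and are narrow beside the spread between libraries. No library of a group overlapped with another group, and the order CK, DCM, SPM held throughout. The mean share was 0.855% ± 0.310 (SD, n = 3) in CK, 6.39% ± 0.922 (SD, n = 3) in DCM and 17.1% ± 8.39 (SD, n = 3) in SPM, or 17.5% in SPM without replicate 2 (n = 2).

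The share was thus 5.53 percentage points higher in DCM than in CK, 10.7 points higher in SPM than in DCM and 16.2 points higher in SPM than in CK. SPM replicate 1 carried much of the SPM value, and without it the difference from DCM was 6.29 points. Expressed the other way, CK hearts held 83.8, 177.0 and 120.3 Myh6 counts per Myh7 count, DCM hearts 15.8, 12.4 and 16.3, and SPM hearts 2.87, 5.16 and 9.96. Alpha myosin transcripts still outnumbered beta myosin transcripts in every library. The share computed per length, from FPKM, was close to that from counts, at 0.839%, 6.27% and 16.8% for the group means. The summed normalized level of both genes was 23978 ± 1801 CPM (SD, n = 3) in CK, 22469 ± 2913 in DCM and 20623 ± 1733 in SPM, so the sum moved much less than its makeup. The transcripts of the 2 genes are alike over part of their length. Of the 50-base windows of the longest Myh7 transcript 22.2% occurred identically in Myh6, falling to 15.3% at 75 bases, 11.2% at 100 bases and 5.43% at 150 bases. How the authors' counting placed reads that match both is not given in the sources used here, and the read length was not used, so a small Myh7 level beside a large Myh6 level, as in CK, is less certain than the counting interval shows.

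**Figure D2:**
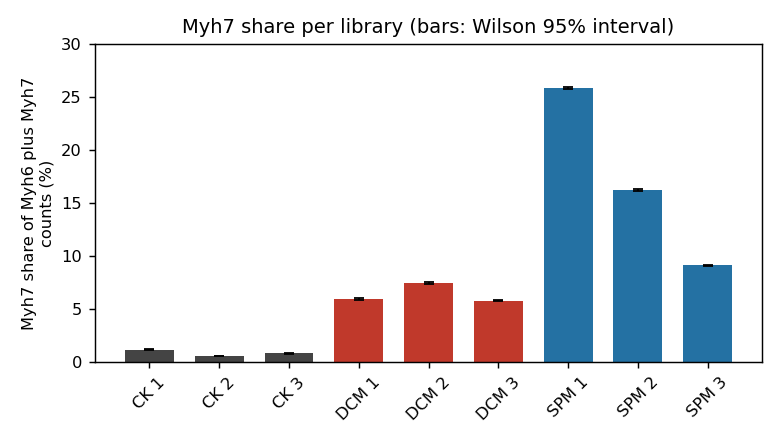
Share of Myh7 in the Myh6 plus Myh7 counts (vertical axis, percent, from 0) for each of the 9 libraries, with Wilson 95% intervals as error bars. The CK bars lie between 0.562% and 1.18%, the DCM bars between 5.77% and 7.45% and the SPM bars between 9.13% and 25.8%.

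Myh7b had overlapping levels in CK and DCM and was higher in SPM. Its normalized level was 36.3, 42.6 and 41.3 CPM in CK, 36.3, 40.3 and 43.6 in DCM, and 73.5, 60.5 and 50.1 in SPM. Each SPM library lay above all CK and DCM libraries. The log2 fold change was -0.00 (SE 0.09) in DCM compared to CK, 0.62 (SE 0.13) in SPM compared to DCM and 0.61 (SE 0.13) in SPM compared to CK, or 0.63 (SE 0.14) and 0.62 (SE 0.15) for the last 2 without SPM replicate 2. With the GC offset they were 0.84 and 0.80. No 50-base window of Myh7 occurred identically in Myh7b. Per length, Myh7b (5.89 to 11.6 FPKM) stayed far below Myh7 (21.7 to 758.6 FPKM). In all 3 myosin genes SPM replicate 1 lay farthest from CK and replicate 3 nearest, with replicate 2, which resembles a mixture of them, in between.

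Thra, the main thyroid hormone receptor gene of the heart, differed little between the groups. Its normalized level was 184.2, 178.0 and 190.0 CPM in CK, 216.1, 205.6 and 196.0 in DCM, and 170.0, 174.1 and 186.3 in SPM. Each DCM library lay above every CK and every SPM library, and CK and SPM overlapped. The log2 fold change was 0.16 (SE 0.07) in DCM compared to CK, -0.22 (SE 0.07) in SPM compared to DCM and -0.06 (SE 0.06) in SPM compared to CK, or -0.21 (SE 0.10) and -0.05 (SE 0.08) for the last 2 without SPM replicate 2. These differences depended on the processing. The GC offset turned SPM compared to DCM to 0.01 and SPM compared to CK to 0.13, and a limma fit to FPKM gave 0.07 for DCM compared to CK. FPKM were not scaled by TMM, and the median over all genes in this comparison was -0.09 with limma on FPKM plus 0.1 and -0.06 on FPKM plus 1. Thra makes both a hormone-binding receptor and a splice form that does not bind hormone, and the annotation lists 9 transcripts of it, which gene counts do not separate.

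Thrb was the lowest of the 5 genes per length, with 265 to 581 counts per library. Its normalized level was 8.45, 16.2 and 14.04 CPM in CK, 10.9, 11.9 and 11.3 in DCM, and 14.6, 15.4 and 15.2 in SPM. The CK libraries spanned the values of both other groups, while all SPM libraries lay above all DCM libraries. The log2 fold change was -0.18 (SE 0.19) in DCM compared to CK, 0.41 (SE 0.09) in SPM compared to DCM and 0.22 (SE 0.20) in SPM compared to CK. Without SPM replicate 2 the SPM values were 0.39 (SE 0.13) and 0.20 (SE 0.23), and with the GC offset 0.25 and 0.09. Both values against CK changed sign with 1 CK library left out. DCM compared to CK went to -0.41 without CK replicate 1 and to 0.02 without CK replicate 2, and SPM compared to CK went to -0.02 and to 0.42. Per length, Thra (67.4 to 88.3 FPKM) was higher than Thrb (1.43 to 2.76 FPKM) in every library.

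Counted over the 5 genes, the libraries of the groups did not overlap for 2 genes in DCM compared to CK (Myh7 and Thra), for 4 in SPM compared to DCM (all but Myh6) and for 3 in SPM compared to CK (the 3 myosins). Among all genes tested the share without overlap was 29.3% in DCM compared to CK (14.5% higher, 14.8% lower), 39.2% in SPM compared to DCM (19.7% higher, 19.5% lower) and 46.3% in SPM compared to CK (23.3% higher, 23% lower), or 41.4% and 48.1% for the last 2 without SPM replicate 2, so lack of overlap was common in these data and nothing is read from the count. The genes with the most similar profile, by Pearson correlation of log2(normalized CPM + 0.5) over the 9 libraries among 14098 genes tested in all 3 comparisons, were listed as a description, since every gene that follows the groups in this order correlates with Myh7. For Myh7 they were Per2, a repressor of the circadian clock (r = 0.987), Pdzk1, a scaffold protein (0.986), Ehd4, an endocytic trafficking protein (0.983), Lcn2, the iron-siderophore carrier lipocalin (0.981), and Galnt15, a glycosyltransferase (0.980). Per2 had 5.41 to 8.80 CPM in CK, against 24.8 to 29.9 in DCM and 26.2 to 49.0 in SPM. For Myh6 they were Gfm1, Lmtk2 and Akap12 (0.979 to 0.983), for Myh7b Mcl1, Npl and Chd6 (0.981 to 0.984), for Thra Itpka, Synpo and Ciapin1 (0.955 to 0.959) and for Thrb Gfpt2, Hcar1 and Pgbd1 (0.961 to 0.965). Itpka did not exceed 1.08 CPM in any library and Hcar1 did not exceed 1.13 CPM, so their profiles rest on few counts.

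Mhrt is a long noncoding RNA (ENSMUSG00000097652, chr14:54968678-54974349, plus strand) read antisense from the end of Myh7, known in the mouse heart for opposing hypertrophy. It had 5.45, 6.86 and 6.23 CPM in CK, 4.32, 2.78 and 2.84 in DCM, and 0.98, 2.09 and 3.32 in SPM, on 32 to 246 counts per library. All DCM and SPM libraries lay below all CK libraries. With edgeR (a quasi-likelihood test, p-values adjusted over all genes after Benjamini and Hochberg), Mhrt fell in DCM compared to CK (log2 fold change -0.89, SE 0.21, adjusted p = 0.0174) and in SPM compared to CK (-1.54, SE 0.35, adjusted p = 0.0144), while SPM compared to DCM was -0.65. The call in DCM was lost without CK replicate 2 (-0.81), DCM replicate 2 (-0.78) or DCM replicate 3 (-0.79) and in the joint fit of all 9 libraries (-0.89), and that in SPM without CK replicate 2 (-1.46) or SPM replicate 2 (-1.53, adjusted p = 0.0544). Of the 1214 exon bases of Mhrt, 484 lie in exons of Myh7 and 0 in exons of Myh6. Whether reads were counted by strand is not stated, so reads from these bases cannot be assigned to Mhrt or Myh7 with certainty.

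**Figure D3:**
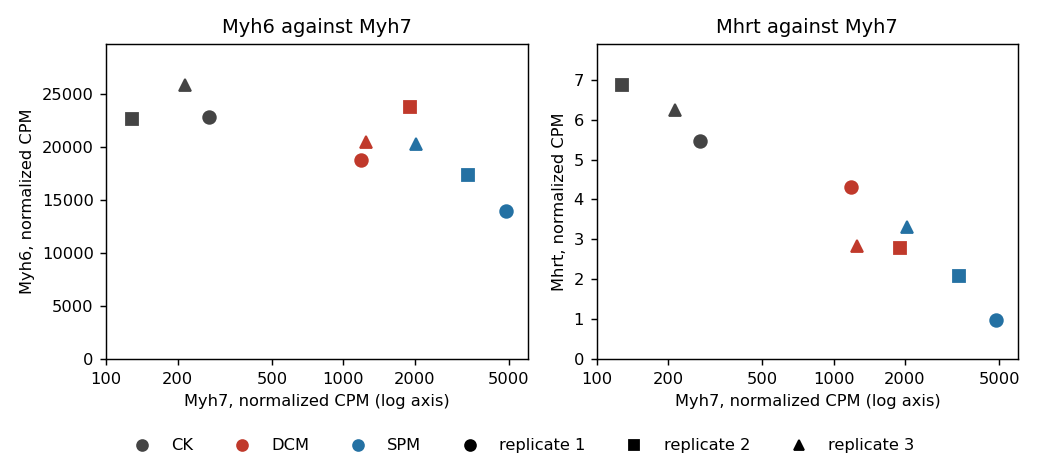
Normalized CPM of Myh6 (left) and of the antisense transcript Mhrt (right) on the vertical axes against that of Myh7 (horizontal log axes), 1 point per library, coloured by group and shaped by replicate. Myh6 ranges from 13956 to 25836 over a span of Myh7 from 128.1 to 4865, and Mhrt from 0.98 to 6.86, with SPM replicate 1 at the lowest Myh6 and Mhrt and the highest Myh7.

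To place the 5 genes in their pathways, 9 lists with 127 genes in total were followed, of which 114 were in the matrix and 102 or 103 were tested. The lists were chosen with earlier results of these data known, so counts of calls within them are a description. A call needed an adjusted p under 0.05 by edgeR together with a change of 1.5-fold or more. In DCM compared to CK, 1 listed gene rose and 9 fell, where 4.34% of all genes were called (2.03% higher and 2.31% lower). In SPM compared to DCM, 6 rose and 0 fell, where 3.59% of all genes were called (2.7% higher and 0.89% lower). Of these 6, 3 (Mylk4, Slc8a1 and Ankrd1) were called without SPM replicate 2, a fit that called 56 of all 14828 genes. At an unadjusted p under 0.05 this comparison held 41 listed genes, and DESeq2 and limma called 6 and 4. Without a fold limit, 27 of 102 listed genes and 2410 of all 14493 genes had an adjusted p under 0.05 in it. The same held for 25 of 103 listed genes and 1497 of all 14402 genes in DCM compared to CK. In SPM compared to CK it held for 48 of 102 listed genes and 3989 of all 14574 genes. The share of all genes at an unadjusted p under 0.05 is not given, so nothing is read from such counts here or below. In SPM compared to CK, 10 rose and 7 fell, where 9.21% of all genes were called (5.08% higher and 4.12% lower). Without SPM replicate 2, 12 in all were called, which leaves out Hcn4, Mef2a, Nppa, Nppb and Mhrt, where 771 of all 14897 genes were called. The adjusted p of these 12 by edgeR was larger in that fit, at 0.0027 (Ankrd1) to 0.0489 (Tnni1), against 0.0004 to 0.0097 with replicate 2. The median log2 fold change over the listed genes was 0.02, 0.01 and 0.03, and over all genes it was -0.00, 0.01 and 0.00.

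Of 11 other class II myosin heavy chain genes, 10 were in the matrix, 4 passed the low-count filter and none was called in any comparison by edgeR or DESeq2, while limma on FPKM called 1, Myh9, as lower in SPM compared to CK. That limma fit used FPKM without TMM scaling, and its median log2 fold change over all genes was -0.08. The highest of the list in CPM was Myh9, a nonmuscle myosin, with 306.0 to 337.2 CPM in CK, against 220.5 to 242.9 in DCM and 202.0 to 232.0 in SPM. Its log2 fold change of -0.47 (SE 0.07) in DCM compared to CK and of -0.55 (SE 0.07) in SPM compared to CK had an adjusted p of 0.0019 and 0.0015 by edgeR but stayed under the fold limit. At an unadjusted p under 0.05 there were 2, 1 and 3 of the 4 genes in DCM compared to CK, SPM compared to DCM and SPM compared to CK. The adjusted p by edgeR was also under 0.05 for 2, 1 and 3 of them. Myh3 and Myh8, the embryonic and perinatal skeletal myosins, did not exceed 0.07 and 0.29 CPM. The fast skeletal muscle markers, 9 of 10 measured, summed to 5.23 to 6.88 CPM in CK, against 3.49 to 5.23 in DCM and 3.55 to 5.23 in SPM, with Myh1 and Myh2 at or near 0.

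Among the myosin light chains, their kinases and the myosin binding proteins, 16 genes were tested in DCM compared to CK and 4 fell by edgeR. Mybpc2, the fast skeletal form of myosin binding protein C, fell from 19.97 to 41.2 CPM in CK to 11.8 to 16.3 in DCM (log2 fold change -1.26, SE 0.22, adjusted p = 0.0030). Myl1, a fast skeletal essential light chain, fell from 34.9 to 38.9 to 12.1 to 18.6 CPM (-1.23, SE 0.13, adjusted p = 0.0001). Both also fell in SPM compared to CK, Mybpc2 by 1.49 and Myl1 by 1.09 on the log2 scale (adjusted p = 0.0032 and 0.0012), and their SPM libraries lay within or near the range of DCM. Mybphl, an atrial relative of the binding proteins, and Myl4, the atrial essential light chain, fell by 1.04 and 0.96 on the log2 scale in DCM (adjusted p = 0.0073 and 0.0084) and were not called in SPM compared to either group. The summed level of 8 atrial markers, among them Myl4 and Mybphl, was 1279 to 1717 CPM in CK, against 711.1 to 1251 in DCM and 1219 to 1980 in SPM, with all 8 at or above 1 CPM in every library, and its part in these values was not tested. Mylk4, a myosin light chain kinase family gene, rose in SPM compared to DCM (0.65, SE 0.11, adjusted p = 0.0107), from 90.9 to 106.2 CPM in DCM to 128.1 to 175.1 in SPM, close to the 133.0 to 137.6 of CK. This call was lost without DCM replicate 2 (0.61), without SPM replicate 1 (0.53) and with the GC offset (0.52). Myl2, the ventricular regulatory light chain and the gene of the list with the highest CPM, was not called, with log2 fold changes of 0.16 (SE 0.09), -0.17 (SE 0.10) and -0.01 (SE 0.06) in DCM compared to CK, SPM compared to DCM and SPM compared to CK.

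Of 11 genes for thyroid hormone transport, deiodination and binding, 7 were tested and Dio2 alone was called in the main fit, in DCM compared to CK. In SPM, 1 gene against DCM and 2 against CK had an unadjusted p under 0.05 by edgeR, and neither DESeq2 nor limma called any. The adjusted p by edgeR was under 0.05 for 0 and 1 of them. Dio2, the deiodinase that makes active hormone from its precursor, had 1.85, 2.09 and 2.89 CPM in CK, 1.28, 1.02 and 0.73 in DCM, and 1.38, 1.70 and 2.31 in SPM, on 25 to 89 counts. It fell in DCM compared to CK (log2 fold change -1.16, SE 0.33, adjusted p = 0.0430 by edgeR), and SPM compared to DCM gave 0.82 (SE 0.32, adjusted p = 0.0981). The call was lost without CK replicate 2 (-1.22), CK replicate 3 (-0.96), DCM replicate 2 (-1.16) or DCM replicate 3 (-0.97), with a replicate block (-1.16) and in limma on FPKM plus 0.1 (-0.91). Dio3, which inactivates the hormone, had 0 to 4 counts per library. Dio1 was not analysed here. Slc3a2, the shared subunit of amino acid transporters that also carry thyroid hormone and the gene of the list with the highest CPM, was at 56.1 to 59.9 CPM in CK, against 77.0 to 83.5 in DCM and 71.3 to 91.5 in SPM (0.47, SE 0.07, in DCM compared to CK), under the fold limit. In SPM compared to CK it was at 0.48 (SE 0.09, adjusted p = 0.0064 by edgeR), and the GC offset took it to 0.59, where it was called.

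The partners and coregulators of the thyroid receptors, 17 genes all tested, held no call by edgeR, DESeq2 or limma in DCM compared to CK or in SPM compared to DCM, where 1 and 6 of them had an unadjusted p under 0.05, with median log2 fold changes of 0.01 in both. By edgeR, 1 and 3 of these 17 genes had an adjusted p under 0.05 but stayed under the fold limit. Rxra, the retinoid X receptor that pairs with thyroid receptors and the highest of them in CPM, was at 125.3 to 144.7 CPM over all libraries. Med13, a subunit of the Mediator complex and a known target of miR-208a in the mouse heart, rose in SPM compared to CK (0.74, SE 0.14, adjusted p = 0.0069 by edgeR), from 5.86 to 6.76 CPM in CK to 8.96 to 12.4 in SPM, with DCM at 8.12 to 9.76. The GC offset took this value to 0.46, under the fold limit, and the call was also lost in limma on FPKM plus 0.1 (0.56).

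Of 18 genes that thyroid hormone is known to raise, 17 were tested. In DCM compared to CK 3 fell, in SPM compared to DCM none was called by edgeR, DESeq2 or limma (6 had an unadjusted p under 0.05), and in SPM compared to CK 4 fell and 2 rose, so the calls did not share a direction. In SPM compared to DCM, 4 had an adjusted p under 0.05 by edgeR, 2 higher and 2 lower, all under the fold limit. Hr, the hairless corepressor and a direct receptor target in other tissues, had 29.5, 25.8 and 27.7 CPM in CK, 16.5, 16.2 and 13.2 in DCM, and 6.80, 11.9 and 13.6 in SPM. It fell in DCM (log2 fold change -0.86, SE 0.11, adjusted p = 0.0003) and in SPM (-1.37, SE 0.21, adjusted p = 0.0030), both compared to CK by edgeR. Hcn2, a pacemaker channel, fell from 40.3 to 45.6 CPM in CK to 27.4 to 28.04 in DCM (-0.61, SE 0.08, adjusted p = 0.0005) and to 17.0 to 21.3 in SPM (-1.15, SE 0.10, adjusted p = 0.0004) by edgeR, without overlap between the groups. Ucp3, a mitochondrial carrier of muscle, fell from 161.9 to 188.2 CPM in CK to 98.3 to 123.7 in DCM (-0.61, SE 0.09, adjusted p = 0.0015) and to 68.2 to 110.2 in SPM (-0.97, SE 0.15, adjusted p = 0.0033). In DCM the call of Hcn2 was lost without CK replicate 1 (-0.55) and that of Ucp3 without CK replicate 2 (-0.55) or DCM replicate 3 (-0.51), since both lie near the fold limit.

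The fourth fall in SPM compared to CK was Hcn4, another pacemaker channel (-0.71, SE 0.19, adjusted p = 0.0252 by edgeR), whose call was lost without CK replicate 2 (-0.69), CK replicate 3 (-0.68), SPM replicate 1 (-0.51) or SPM replicate 2 (-0.72) and with the GC offset (-0.54). The rises were those of Klf9, a transcription factor that also answers to glucocorticoids (0.82, SE 0.14, adjusted p = 0.0050), and of Ppargc1a, the coactivator of mitochondrial biogenesis (0.76, SE 0.09, adjusted p = 0.0013), the latter at 0.54 and not called with the GC offset. Klf9 had 67.8 to 107.4 CPM in CK, against 120.3 to 137.9 in DCM and 150.7 to 165.7 in SPM. Atp2a2, the calcium pump of the sarcoplasmic reticulum and the gene of the list with the highest CPM, was at 11711 to 12942 CPM in CK, against 9498 to 11500 in DCM and 8864 to 10702 in SPM, with log2 fold changes of -0.22 (SE 0.09), -0.10 (SE 0.10) and -0.33 (SE 0.07) and no call.

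Of 5 genes that thyroid hormone is known to lower, beside Myh7, 4 were tested. None was called in DCM compared to CK by edgeR, DESeq2 or limma, where all 4 had positive log2 fold changes between 0.33 and 0.49 and an unadjusted p under 0.05. Of these, 3 had an adjusted p under 0.05 by edgeR (Slc8a1 0.0417, Adcy5 0.0058 and Adcy6 0.0025) but stayed under the fold limit. Of all genes, 1497 of 14402 had such a p at any fold change. Slc8a1, the sodium-calcium exchanger, had 177.6, 190.4 and 213.1 CPM in CK, 219.5, 238.6 and 274.4 in DCM, and 432.1, 377.5 and 344.4 in SPM. It rose in SPM compared to DCM (0.66, SE 0.10, adjusted p = 0.0097) and compared to CK (0.98, SE 0.10, adjusted p = 0.0007) by edgeR. Kcne1, a subunit of a repolarizing potassium channel, had 6.95, 8.17 and 9.08 CPM in CK, 11.03, 9.07 and 10.5 in DCM, and 20.005, 17.4 and 12.9 in SPM. It rose by 0.71 (SE 0.15, adjusted p = 0.0171) and by 1.05 (SE 0.17, adjusted p = 0.0036) in the same comparisons. Against DCM, the call of Slc8a1 was lost without DCM replicate 1 (0.58), DCM replicate 2 (0.64) or SPM replicate 1 (0.56) and with the GC offset (0.36), and that of Kcne1 without DCM replicate 1 (0.77), DCM replicate 2 (0.64), SPM replicate 1 (0.56) or SPM replicate 2 (0.69, adjusted p = 0.0676). The adenylyl cyclases Adcy5 and Adcy6, the latter with the highest CPM of the list, were not called. In SPM compared to CK their log2 fold changes of 0.37 and 0.38 had an adjusted p of 0.0032 and 0.0082 by edgeR but stayed under the fold limit.

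**Figure D4:**
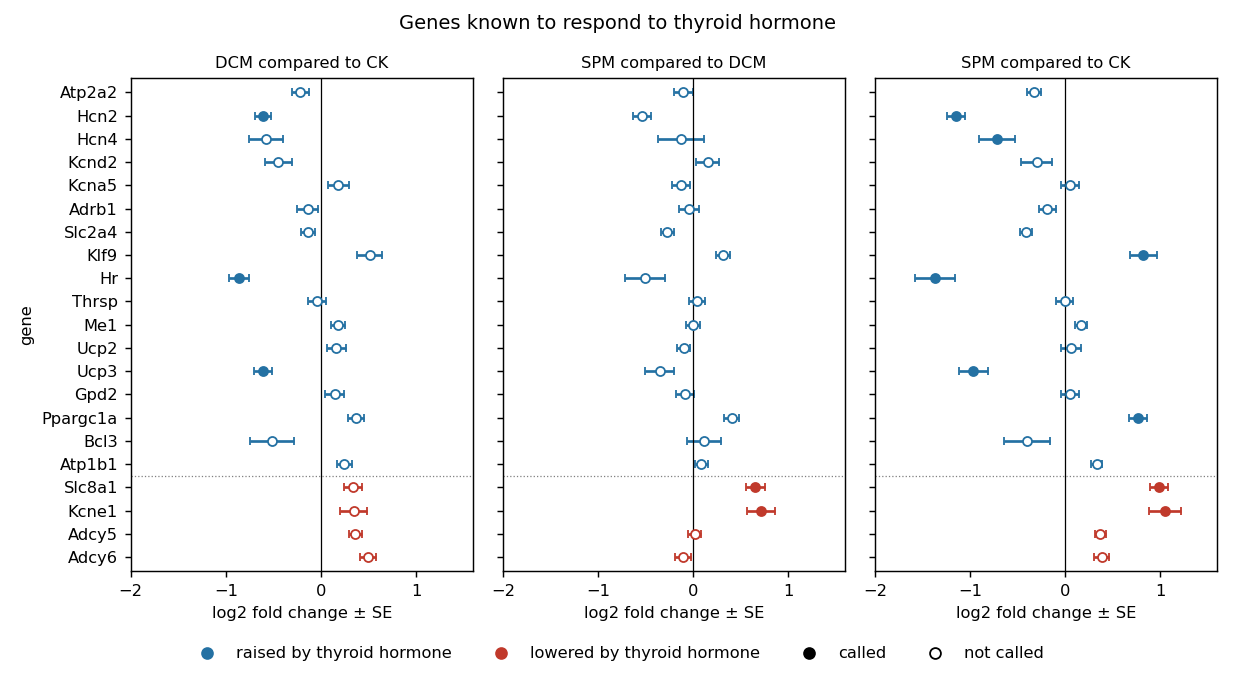
Log2 fold change with its standard error (horizontal axes) of genes that thyroid hormone is known to raise (blue, above the dotted line) or to lower (red, below it), for DCM compared to CK, SPM compared to DCM and SPM compared to CK. Filled points passed the test and the fold limit. In SPM compared to CK, Hr lies at -1.37 and Hcn2 at -1.15, whereas Klf9 lies at 0.82, Slc8a1 at 0.98 and Kcne1 at 1.05.

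Of 33 regulators known to act on myosin heavy chain genes, 30 were tested, and none was called in DCM compared to CK or SPM compared to DCM by edgeR, DESeq2 or limma, with 6 and 15 at an unadjusted p under 0.05. By edgeR, 4 and 12 of them had an adjusted p under 0.05 but stayed under the fold limit. Of all genes, 1497 of 14402 and 2410 of 14493 had such a p at any fold change. In SPM compared to CK, Mef2a, a muscle transcription factor, rose from 4.65 to 6.25 CPM to 8.002 to 9.502 CPM (0.68, SE 0.15, adjusted p = 0.0107 by edgeR). The call was lost without CK replicate 1 (0.57) or SPM replicate 2 (0.67, adjusted p = 0.0542), with the GC offset (0.47) and in limma on FPKM plus 0.1 (0.55), but not with DESeq2. Mef2d, of the same family and the gene of the list with the highest CPM, was not called. Its CK libraries held 249.9 to 259.2 CPM, those of DCM 267.2 to 282.6 and those of SPM 211.6 to 240.3.

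Among the fetal heart genes, which are known to return with Myh7 in stressed hearts, 9 were tested. In DCM compared to CK, Cacna1h, a T-type calcium channel, rose (0.61, SE 0.10, adjusted p = 0.0017 by edgeR) and Myl4 fell, as given above, while the natriuretic peptide genes were not called. The call of Cacna1h was lost without DCM replicate 2 (0.49), with the GC offset (0.57) and in limma on FPKM plus 0.1 (0.50). Nppa, the atrial natriuretic peptide, had 573.9, 346.7 and 487.1 CPM in CK, 300.5, 453.8 and 521.1 in DCM, and 563.0, 720.1 and 850.5 in SPM. Nppb, the brain natriuretic peptide, had 223.7, 135.4 and 115.8 CPM in CK, 159.6, 165.7 and 164.3 in DCM, and 411.2, 292.9 and 197.9 in SPM. Ankrd1, a stress-responsive titin-binding protein and the highest of the list in CPM, had 913.9, 767.3 and 836.8 CPM in CK, 880.3, 983.9 and 1041 in DCM, and 1897, 1736 and 1609 in SPM. Within SPM, Nppa was highest in replicate 3 and Nppb and Ankrd1 were highest in replicate 1, the library with the highest Myh7.

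All 3 rose in SPM compared to DCM by edgeR, Nppa by 0.74 (SE 0.19, adjusted p = 0.0292), Nppb by 0.88 (SE 0.20, adjusted p = 0.0201) and Ankrd1 by 0.85 (SE 0.09, adjusted p = 0.0065) on the log2 scale. Compared to CK they rose by 0.60 (SE 0.19), 0.92 (SE 0.29) and 1.05 (SE 0.08), with adjusted p of 0.0451, 0.0437 and 0.0004 by edgeR. Without SPM replicate 2 the calls of Nppa and Nppb were lost against DCM (adjusted p = 0.0825 and 0.0566) and against CK (0.1098 and 0.0920), while Ankrd1 kept its calls (adjusted p = 0.0217 and 0.0027). Leaving out other libraries also ended the calls of Nppa against DCM (DCM replicate 1, 0.54, or 2, 0.79) and against CK (CK replicate 2, 0.42, or 3, 0.62, or SPM replicate 3, 0.45). For Nppb the same held against DCM without any of the DCM replicates (0.86, 0.89 and 0.88) or SPM replicate 1 (0.58) and against CK without CK replicate 2 (0.82) or 3 (0.74) or SPM replicate 1 (0.63), and with the GC offset in both comparisons (0.85 and 0.90). By other tools, limma on FPKM plus 0.1 called neither Nppa nor Nppb in either comparison, and DESeq2 called Nppb against DCM but not against CK and Nppa in neither, whereas both tools called Ankrd1 in both. Tnni1, the slow skeletal and fetal troponin I, rose in SPM compared to CK (1.27, SE 0.26, adjusted p = 0.0097 by edgeR), from 0.99 to 1.43 CPM to 2.34 to 3.601 CPM. Without SPM replicate 2 its adjusted p was 0.0489. In DCM it had 1.005 to 2.23 CPM, and SPM compared to DCM gave 1.05 (SE 0.33, adjusted p = 0.0529). Tnni1 counts were few, with sums of 119 in CK, 142 in DCM and 278 in SPM. The atrial markers given above include Nppa, and their part in its rise was not tested.

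**Figure D5:**
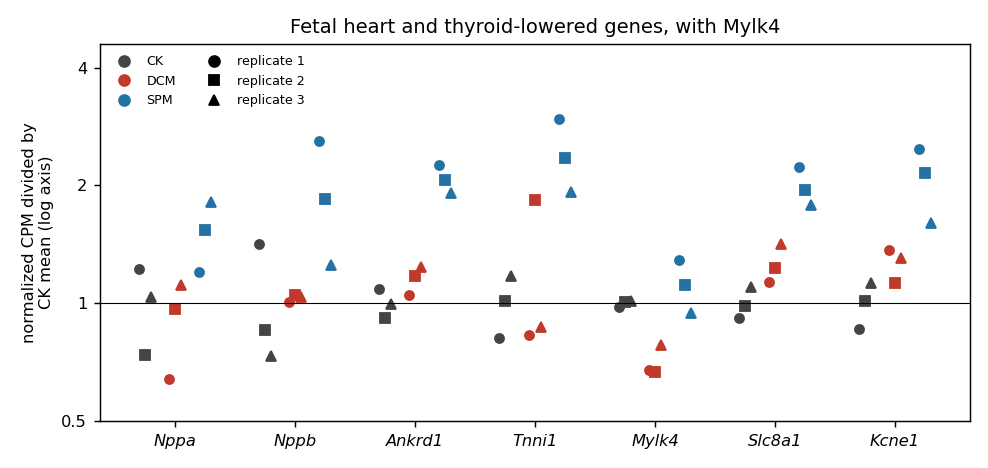
Normalized CPM divided by the CK mean (vertical log axis) of the fetal heart genes Nppa, Nppb, Ankrd1 and Tnni1, the kinase gene Mylk4 and the thyroid-lowered genes Slc8a1 and Kcne1 in each library, coloured by group and shaped by replicate. The SPM points of Ankrd1, 1609 to 1897 CPM, lie above all CK and DCM points, 767.3 to 1041 CPM, whereas the DCM points of Nppb, 159.6 to 165.7 CPM, lie within the span of CK, 115.8 to 223.7 CPM.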

How the data were processed

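RNA from 9 heart libraries was compared, 3 each of CK, DCM and SPM, grouped by their titles. The authors deposited whole-number counts per gene, made from reads filtered with fastp 0.18.0. Which aligner, counting tool and strand setting made them is not given in the sources used here. In the labels, the submitters' processing notes name Bowtie 0.12.2 and the builds mm8 and mm9 without saying what each was used for. The authors also deposited FPKM values, whose implied lengths equal the longest GENCODE M21 transcript for 97.7% of 22820 genes, so levels per length rest on 1 length per gene. Whether a library is 1 mouse (3 mice per group in the RNA methods) or a pool (18 hearts in pools of 6 in the statistics) is not settled, and p-values measure the spread between libraries, which may be technical.

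Groups were compared in pairs on 6 libraries each with the quasi-likelihood test of edgeR 4.0.16 (R 4.3.3) in place of the authors' DESeq2, after filterByExpr and TMM scaling, with Benjamini-Hochberg adjustment over all genes and limits of 0.05 and 1.5-fold. Standard errors are the log2 fold change over the square root of F. The GC offset is the lowess trend (span 0.3) of each library's log2 CPM on transcript GC content. Replicate numbers did not pair the libraries (residual correlations -0.0746 to 0.205 for the same number and -0.284 to 0.217 otherwise). On simulated data with 200 changed genes, 2-fold changes were recovered at 86.5% in DCM compared to CK (14447 genes), 93.1% in SPM compared to DCM (14546 genes) and 88.3% in SPM compared to CK (14612 genes). Unchanged genes that were called numbered 6, 8 and 3. The simulation gave every gene the same spread between replicates beyond counting error and drew the libraries independently. These rates therefore describe the simulation and not the recovery in the deposited data. Sequences came from RefSeq, GRCm38.p6.

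The 5 genes and the lists were chosen with earlier results of these data known. Besides the 5, most genes were named by rule: per list and comparison the 3 largest called changes, the gene with the highest mean CPM of each list, the deiodinases, Mhrt, the microRNA genes, and the genes most correlated with Myh7 (5) and with each other gene of the 5 (3). Some were named outside this rule, among them Klf9, Ppargc1a, Hcn4, Adcy5, Myh1, Myh2, Myh3 and Myh8. Alternatives were DESeq2 1.42.0, RLE scaling, no filter, at least 1 CPM in 3 libraries, a joint fit of all 9 libraries, a term for the replicate number, limma 3.58.1 on log2 of FPKM plus 0.1 or 1, no fold limit, the GC offset, and each library left out in turn. The FPKM in the limma fits were not scaled by TMM. On FPKM plus 0.1 the median over all genes was -0.09 in DCM compared to CK, -0.00 in SPM compared to DCM and -0.08 in SPM compared to CK. The share of Myh7 was also computed from FPKM.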

Additional observations from a re-analysis of the deposited data

How the results depend on the processing

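Among the pathway lists, dropping the fold limit moved the number of called genes from 10 to 25 in DCM compared to CK, from 6 to 27 in SPM compared to DCM and from 17 to 48 in SPM compared to CK. Over all genes it moved the calls from 625 to 1497 of 14402, from 521 to 2410 of 14493 and from 1342 to 3989 of 14574. In SPM compared to DCM the count was 11 with a replicate block, 3 with limma on FPKM plus 1 and 3 with the GC offset. The calls over all genes were 610, 142 and 125 in these fits, against 521 in the main fit. Since the replicate numbers do not pair the libraries, the value with the block describes that fit only, and the block moved no other count by over 1.5 times. Leaving out 1 library gave 7 to 12 calls in DCM compared to CK, 1 (without DCM replicate 2) to 10 (without SPM replicate 3) in SPM compared to DCM, where leaving out DCM replicate 1 or SPM replicate 2 gave 3, and 12 to 18 in SPM compared to CK. Calls over all genes also shifted with 1 library left out. They ranged from 427 to 704 in DCM compared to CK and from 771 to 1589 in SPM compared to CK. In SPM compared to DCM they were 73 without DCM replicate 2, 56 without SPM replicate 2 and 791 without SPM replicate 3. DESeq2, RLE scaling, other filters and the fit of all 9 libraries gave counts of listed genes within 1.5 times of those in the main fit. The cause of these shifts was not tested.

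The differences in the Myh7 share kept their direction throughout, at 5.002 to 5.84, 6.29 to 14.7 and 11.8 to 20.2 percentage points with 1 library left out. The GC offset turned the sign of Thra in SPM compared to DCM (0.011) and in SPM compared to CK (0.13). Leaving out a CK library turned that of Thrb in DCM compared to CK (0.02 without CK replicate 2) and in SPM compared to CK (-0.02 without CK replicate 1), and Myh7b in DCM compared to CK, at -0.00, also changed sign, reaching 0.07 without DCM replicate 1. Apart from the first of these, 216 values of the 5 genes under alternatives stayed within the spread between replicates and 8 moved beyond it, which were values of Thra, Thrb and Myh7b with the GC offset and of Thra and Thrb in limma on FPKM. Among the 33 calls of the listed genes, the alternatives left 417 values on the same side of the limits and took 78 below them, with none reversed. In limma on FPKM plus 1 these included Hcn4 and Tnni1 in SPM compared to CK and Kcne1 in SPM compared to DCM. The GC offset also added calls of listed genes. They were Hcn4 in DCM compared to CK (-0.61) and Slc3a2 (0.59), Gata6 (0.63) and Cacna1h (0.67) in SPM compared to CK. Depth limits the genes with few counts per library, among them Thrb (265 to 581), Mhrt (32 to 246) and Dio2 (25 to 89).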
